A study of Mus musculus with 16 samples.

Results

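Committed oligodendrocyte precursors (COPs) are the cells between the dividing oligodendrocyte precursor cell (OPC) and the oligodendrocyte that makes myelin, the lipid-rich sheath of axons. An OPC that commits to the lineage loses the growth factor receptor *Pdgfra*, passes through a short stage marked by *Gpr17*, a G protein-coupled receptor, and then turns on myelin genes such as *Mbp* and *Mog*. Such cells are formed throughout adult life in the brain, and *Bmp4*, *Enpp6*, *Neu4* and *Fyn* are other genes known to mark them.

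COPs were chosen by their own counts of unique molecular identifiers (UMIs, each standing for 1 captured RNA molecule) in single cells of the hypothalamus and preoptic area of female mice. A cell was kept when it had 201 to 3999 detected genes and under 15% of its UMIs from mitochondrial genes. A kept cell was called a COP when it held at least 2 *Gpr17* UMIs, at least 1 of *Neu4*, *Bmp4*, *Enpp6*, *Fyn*, *Olig1* and *Olig2*, and at most 1 of 11 genes of astrocytes, neurons, endothelial cells, microglia, ependymal cells, mural cells and fibroblasts. This rule took 386 of 55675 kept cells, 0.693%. They were compared with 1027 OPCs (at least 2 *Pdgfra* UMIs) and 1902 oligodendrocytes (OLs, at least 2 *Mog* UMIs), and 1182 endothelial cells served as a background reference for RNA that does not belong to the lineage. A cell that met several rules was called a COP, so that 93 COPs also held at least 2 *Pdgfra* UMIs and 19 at least 2 *Mog* UMIs.

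Each of the 16 libraries came from 1 mouse on a mixed CD-1;129P2 background, 8 to 10 weeks old when treatment began, that received 28 daily subcutaneous injections and was collected 2 h after the last. There were 3 wild-type mice given oil (corn oil with ethanol, the vehicle), 5 wild-type mice given tamoxifen at 0.1 mg/kg, 4 Esr1cKO mice given oil and 4 Esr1cKO mice given tamoxifen. Tamoxifen is a ligand of the estrogen receptors. Esr1cKO mice carry floxed *Esr1*, the gene of estrogen receptor alpha, and the *Nkx2-1*-Cre transgene, so *Esr1* is lost only from cells descended from *Nkx2-1*-expressing progenitors, and wild-type mice were littermates without Cre. No *Nkx2-1* UMI was found in any COP, and whether COPs descend from that lineage was not measured.

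A library held 2634253 to 8038158 UMIs in all and 10 to 42 COPs (median 24). The COPs of a library summed to 12210 to 79708 UMIs, which sets the precision of every level given here. The median COP had 1333 UMIs and 977.5 genes, against 1055 UMIs in OPCs, 1243.5 in OLs and 1489.5 in endothelial cells. Levels are CPM, the UMIs of a gene per 1000000 UMIs summed over the cells of a type in a library, as mean ± SD over the 16 mice unless another n is given.

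Some libraries stood apart before any comparison. In wild-type oil replicate 3 and Esr1cKO tamoxifen replicate 3 the deposited barcodes began at 100 detected genes, against 20 in the other 14, and these 2 also set themselves apart in earlier results on these data. Libraries 13 to 16, which hold mice of 3 groups, shared 303 to 359 kept cell barcodes per pair, whereas pairs outside them shared at most 42. Of the 386 COPs, 6 had a barcode that was also kept in another library. Calls between the groups of mice that were gained or lost without the 2 libraries are named, with both adjusted p-values for the calls lost, and leaving out the shared barcodes changed none of these calls.

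Genes that chose the cells are described first, without a test. *Gpr17* averaged 2025 ± 376 CPM in COPs (lowest 1511, median 2114, highest 2785), against 219 ± 62.8 CPM in OPCs and 11.7 ± 8.16 in OLs. Beyond the threshold gene, *Fyn*, a Src-family kinase of oligodendrocyte process growth, was at 1672 ± 393 CPM in COPs (lowest 938, median 1784, highest 2391), 201 ± 63.3 in OPCs and 77.9 ± 35.0 in OLs. *Neu4*, a sialidase, was at 703 ± 169 CPM in COPs (lowest 374, median 675, highest 1110.3) and 438 ± 85.9 in OPCs but 7.48 ± 6.92 in OLs, so it was shared with the precursor side. *Enpp6*, a choline phosphodiesterase, showed the opposite arrangement, with 627 ± 379.9 CPM in COPs (lowest 135, median 505, highest 1538), 6.86 ± 9.25 in OPCs and 167 ± 41.6 in OLs.

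*Bmp4*, a secreted ligand of bone morphogenetic protein receptors, was the sparsest marker and the one with the fewest UMIs in OPCs. It was detected in 16.6% of COPs at 227 ± 180.2 CPM (lowest 0, median 197, highest 738), with 1 UMI in all OPCs, 5 UMIs in all OLs and 15.8 ± 22.3 CPM in endothelial cells. The share of COPs with at least 1 UMI was 59.1% for *Neu4*, 56.7% for *Fyn* and 30.6% for *Enpp6*. In endothelial cells, at a higher median depth than COPs, the shares were 0.0846% for *Neu4*, 0.677% for *Enpp6*, 0.338% for *Gpr17* and 12.2% for *Fyn*. The lineage factors *Olig1* and *Olig2* were at 1554 ± 497 and 493 ± 119 CPM in COPs, below the 2341 ± 271 and 634 ± 132 CPM of OPCs and above the 1113 ± 141 and 197 ± 45.5 CPM of OLs.

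**Figure D1:**
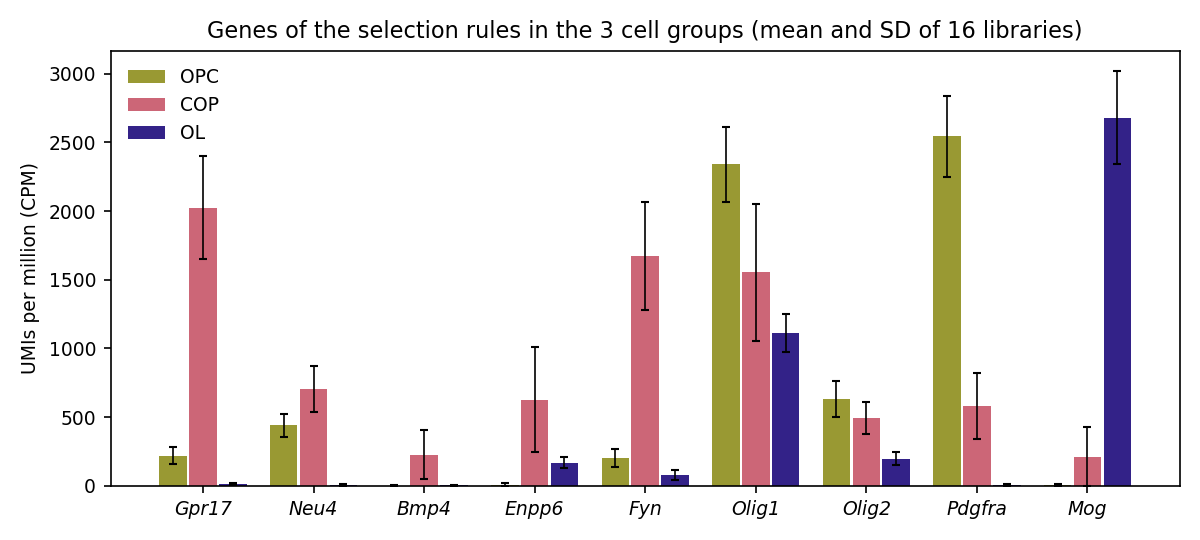
Levels of the 9 genes of the selection rules in CPM, with bars for the mean and error bars for the SD of 16 libraries (cut at 0 where the SD exceeds the mean) in OPCs, COPs and OLs. *Gpr17*, *Fyn*, *Bmp4*, *Neu4* and *Enpp6* are all tallest in COPs, with *Neu4* next in OPCs and *Enpp6* next in OLs.

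The threshold of 2 *Gpr17* UMIs divided a continuous range. Of 1362 kept cells with any *Gpr17* UMI, 423 had at least 2, 404 of these also had a second lineage gene, and 386 passed the exclusion genes. Just outside lay 783 cells with 1 *Gpr17* UMI that met the rest of the rule, of which 253 were in the OPC class, 32 in the OL class and 498 in neither. Among COPs, 223 had 2 *Gpr17* UMIs, 109 had 3 or 4 and 54 had at least 5. From the cells just outside to those with at least 5, *Fyn* pooled over cells was at 483, 973, 1877 and 3071 CPM. *Bmp4* was at 31.2, 101, 244 and 425 CPM, and *Bcas1*, a marker of early myelinating cells that the rule did not use, at 814, 1454, 2391 and 3885. *Pdgfra* went the other way, with 1071, 812, 504 and 97.3 CPM, as did *Ccnd1*, a cyclin that drives entry into the cell cycle, with 466, 341, 119.6 and 53.1. Cells with more *Gpr17* UMIs were also deeper (medians of 949, 1154, 1512 and 1876 UMIs), and the part of depth in these values was not tested.

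Markers of other cell types were counted in COPs to check the label. Of 386 COPs, 278 held no exclusion gene and 108 held 1, which was *Snap25* in 56. Scrublet called 3 COPs doublets, and leaving them out is among the alternatives. Astrocyte markers outside the rule summed to 2480.4 ± 525 CPM in COPs (15 genes), against 4924 ± 569 in OPCs and 1393 ± 339 in OLs. Neuron markers summed to 1305 ± 440.4 CPM (16 genes, led by *Map2*), endothelial markers to 390.2 ± 119 (14 genes, led by *Bsg*) and microglia markers to 695 ± 240.0 (14 genes, led by *Cst3* at 649 CPM). Defining microglia genes *Tmem119*, *Fcer1g* and *Aif1* were at 0 UMIs in COPs, as were the mural and fibroblast genes *Kcnj8*, *Pdgfrb*, *Notch3*, *Col1a1* and *Lum*. Ependymal markers summed to 25.3 ± 27.9 CPM and mural and fibroblast markers to 65.8 ± 43.1 CPM.

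COPs differed among themselves in where they stood between OPC and OL. A *Pdgfra* UMI but no *Mog* UMI was found in 160 COPs, a *Mog* UMI but no *Pdgfra* UMI in 44, both in 2 and neither in 180. The 160 cells came from all 16 libraries and the 44 cells from 14. The 3 sets are described by UMIs pooled over cells, with no test, because they were divided by the same cells' counts. The *Mog* set was also deeper, with a median of 2597 UMIs against 1257 in the *Pdgfra* set and 1266.5 in the set with neither, so a UMI of any gene was more easily seen in it.

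In the set with neither marker 3 genes of the committed stage were at their highest. *Bcas1* was at 839.6 CPM in the *Pdgfra* set, 3214 with neither and 2309 in the *Mog* set. *Fyn* followed with 341, 2413 and 2176 CPM, and *Bmp4* with 13.8, 324 and 274 CPM. *Tcf7l2*, a transcription factor of the Wnt pathway, was at 198, 759.7 and 1162 CPM and *Enpp6* at 46.1, 808 and 1058, so these 2 were highest where *Mog* was seen. In the *Pdgfra* set a *Bmp4* UMI was found in 1.25% of cells and an *Enpp6* UMI in 2.50%, against 25% and 44.4% in the set with neither. Precursor genes stepped down across the same sets. *Cspg5*, a membrane proteoglycan, was at 1504, 298 and 51.8 CPM, *Ptprz1*, a receptor phosphatase, at 2533, 808 and 274, and *Ccnd1* at 521, 74.5 and 22.2. *Vcan*, the proteoglycan versican, did not step down in that way, with 1310.2, 1396 and 895 CPM. As means over libraries, OPCs held *Ptprz1* at 2840, *Ccnd1* at 683 and *Bcas1* at 480 CPM. By these genes the *Pdgfra* set stood nearer to OPCs than to the set with neither. Commitment is therefore least certain in these 160 cells, which the rule counts as COPs in the main comparisons.

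Myelin genes stepped up across the sets. *Mbp*, myelin basic protein, was at 1015, 3784 and 7822 CPM, and *Cnp*, a phosphodiesterase of non-compact myelin, at 378, 1828 and 4040.3. *Mal* and *Opalin*, genes of late myelination, were mostly in the *Mog* set, with 27.7, 22.3 and 1080.4 CPM for *Mal* and 13.8, 52.1 and 1206 for *Opalin*. Within that set a minority of cells held them, with a *Mal* UMI in 15.9% and an *Opalin* UMI in 22.7%. *Gpr17* itself was at 1789.9, 2316 and 1132 CPM. Over libraries, COPs with a *Mog* UMI made up 11.1% ± 6.96 of COPs (n = 16, 0 to 26.7%) and those with a *Pdgfra* UMI 40.7% ± 11.5 (20 to 61.0%).

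Genes that the rules did not use could be tested between the cell types. The UMIs of each type were summed per library and fitted with edgeR's quasi-likelihood test, with the library as a block, over 1710 genes, and a gene was called at an adjusted p (Benjamini-Hochberg) under 0.05. Against OPCs, 41.1% of genes were called, with 323 higher in COPs (18.9%) and 380 lower (22.2%). Without the 2 libraries that stood apart, 317 were higher and 311 lower among 1620 genes. Against OLs, 67.3% were called, with 617 higher (36.1%) and 533 lower (31.2%). COPs differed from OLs at more genes than from OPCs in these sums, although OLs also had the most UMIs per library. In 104 genes (6.08%) COPs were higher than both, and in 66 (3.86%) lower than both. Another 158 genes (9.24%) were above OPCs and below OLs, and 216 (12.6%) below OPCs and above OLs, the intermediate arrangements.

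**Figure D2:**
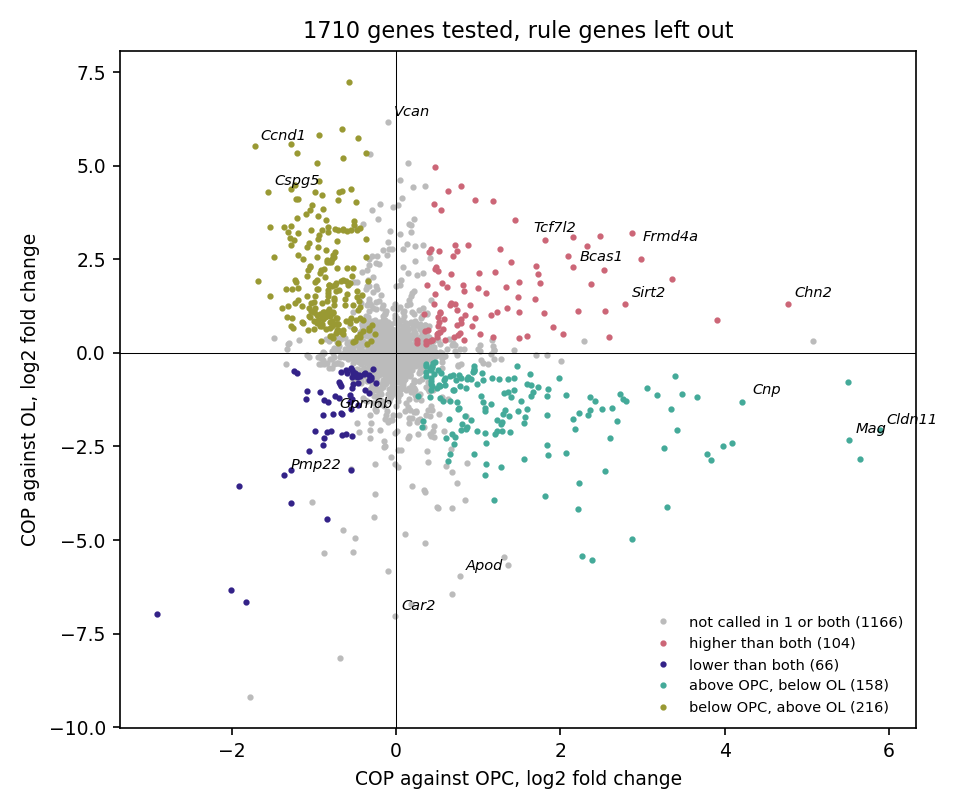
Log2 fold change of COPs against OPCs (horizontal) and against OLs (vertical) for the 1710 tested genes, with 1 point per gene and colour for genes called in both contrasts. The upper right corner holds the 104 genes higher in COPs than in both neighbours, and the lower right the 158 genes above OPCs and below OLs.

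The genes highest in COPs relative to OPCs included the myelin genes *Cldn11* and *Cnp*. Of the genes higher in all 16 libraries, with at least 50 CPM in COPs (53 genes), the largest log2 fold change was that of *Cldn11*, the tight junction claudin of the myelin sheath, at 5.89 (SE 0.32, adjusted p = 7.77e-24), from 17.8 ± 18.9 to 1247 ± 921 CPM. Of the leading 10 genes, 8 are given here. *Chn2*, which acts on the Rac GTPase, was at 4.77, *Cnp* at 4.21 and *Nfasc*, the adhesion molecule neurofascin, at 3.91. The list went on with *Epb4.1l2*, which ties the membrane to the cytoskeleton, at 3.36, *Frmd4a* at 2.87, the tubulin deacetylase *Sirt2* at 2.79 and the tubulin *Tubb4a* at 2.76. All 8 had an adjusted p of at most 1.24e-19.

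Decreases were smaller in size, over all COPs together. Among 54 genes lower in every library, *Ccnd1* had the largest decrease at -1.72 (SE 0.14, adjusted p = 1.09e-15), from 683 ± 164 CPM in OPCs to 212 ± 115 in COPs. The others were *Cspg5*, *Gm3764*, *Gtl3*, *Pmp22*, *Mmp16*, *Gpc5*, *Slc1a3*, *Slc1a2* and *Ncan*, with log2 fold changes from -1.56 to -1.31. They include the glutamate transporters *Slc1a3* and *Slc1a2*, the proteoglycans *Cspg5*, *Gpc5* and *Ncan*, and the membrane metalloproteinase *Mmp16*. Pooled over cells, *Ccnd1* was at 521 CPM in COPs with a *Pdgfra* but no *Mog* UMI and at 74.5 in those with neither. *Cspg5* was at 1504 and 298 CPM. The contrast pools these sets, so its decreases are averages over them. *Slc1a2* and *Slc1a3* are also astrocyte markers, and all 8 astrocyte markers tested were lower in COPs than in OPCs (median log2 fold change -1.09) while 6 of 8 were higher in COPs than in OLs, with 22.2% of all genes lower than in OPCs and 36.1% higher than in OLs.

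Against OLs, genes known from precursors led those higher in COPs. Of 216 genes higher in every library, the largest log2 fold changes belonged to *3110035E14Rik* at 7.25 and *Vcan* at 6.18 (SE 0.20, adjusted p = 1.02e-34), and *Vcan* was at 1293 ± 337 CPM in COPs (lowest 533, median 1403, highest 1733), 1273 ± 216 in OPCs and 16.4 ± 20.3 in OLs. Next came *C1ql1*, a secreted C1q-like protein, at 5.98, *Cacng4*, an auxiliary subunit of AMPA receptors, at 5.83, *Susd5* at 5.75 and *Rlbp1*, a retinaldehyde-binding protein, at 5.58. *Ccnd1* was still at 5.53, so it lay between OPC and OL. *Cspg4*, the NG2 proteoglycan, was at 5.36, *Rgcc* at 5.34 and the adaptor *Traf4* at 5.32.

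On the lower side were genes of the mature cell. *Hapln2*, a link protein of nodes of Ranvier, *Klk6*, a secreted protease, and *Gm21984* had no UMI among the 621839 UMIs of all COPs. With 3 counts taken as the floor over all COPs (4.82 CPM), *Hapln2* was at least 72.0-fold lower, *Klk6* at least 55.5-fold lower and *Gm21984* at least 149-fold lower than in the pooled OLs. *Car2*, a carbonic anhydrase, was at 46.6 ± 39.6 CPM in COPs and 5733 ± 761 in OLs, a log2 fold change of -7.03 (SE 0.19). The other most strongly lower genes were *Pls1*, *Serpinb1a*, *Anln*, *Ndrg1*, *Sez6l2*, *Apod* and *Il33*, with log2 fold changes from -6.97 to -5.83. Among them, *Apod* encodes apolipoprotein D and *Il33* a nuclear cytokine.

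Of the 104 genes higher in COPs than in both neighbours, 21 were so in all 16 libraries with at least 50 CPM. *Bcas1* was at 2314 ± 725 CPM in COPs (lowest 1617, median 2177, highest 4342), 480.4 ± 113 in OPCs and 382 ± 74.5 in OLs. The lowest COP library was above the highest OPC or OL library, 701 and 558 CPM. Its log2 fold changes were 2.15 against OPCs (SE 0.10, adjusted p = 7.36e-26) and 2.30 against OLs (SE 0.10, adjusted p = 1.97e-29). *Tcf7l2* was at 663 ± 347 CPM in COPs (lowest 269.9, median 602, highest 1459), 109 ± 33.6 in OPCs and 78.7 ± 101 in OLs, with log2 fold changes of 2.49 and 3.13. *Frmd4a*, a scaffold protein of cell polarity, had the largest smaller fold change of all, 2.87 against OPCs and 3.21 against OLs.

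Among the rest of the leading 10, *Mpzl1*, a cell surface glycoprotein, was at 2.33 against OPCs and 2.87 against OLs. The dynein light chain *Dynll2* was at 2.09 and 2.58, the microtubule-associated protein *Map1b* at 2.37 and 1.83, and *Epb4.1l2* at 3.36 and 1.98. *Pfn2*, an actin-binding profilin, was at 1.70 and 2.32, *Tns3*, a tensin of focal adhesions, at 1.75 and 1.88, and *Ust*, a sulfotransferase, at 1.82 and 3.01. Only *Pmp22*, *Atp8a1* and *Gpm6b* were called lower in COPs than in both neighbours and lower in all 16 libraries, among genes with a mean of at least 50 CPM in each neighbour. *Pmp22*, peripheral myelin protein, was at 21.9 ± 27.3 CPM in COPs, 67.0 ± 42.1 in OPCs and 217 ± 46.6 in OLs, and *Gpm6b*, a membrane glycoprotein, at 849 ± 213, 1372 ± 205 and 2219 ± 270.4 CPM.

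The bases before the start are printed for *Tcf7l2* and *Tns3*, from the 21 genes, and for the COP marker *Enpp6*. These were chosen because they held the letters marked here, so they do not stand for the other promoters. Each stretch (RefSeq, GRCm38.p6, that is mm10) has 250 bases up to the start, 5′ to 3′ on the gene's strand. Capitals mark ACAATG or its reverse complement CATTGT, the core letters bound by Sox factors, a family that includes *Sox10* of this lineage. The *Tcf7l2* stretch lies at chr19:55741560-55741809 on the plus strand and held CATTGT 245 and 103 bases before the start, that of *Tns3* at chr11:8664536-8664785 on the minus strand held it 142 bases before, and that of *Enpp6* at chr8:46986637-46986886 on the plus strand held ACAATG 219 bases before.
Tcf7l2: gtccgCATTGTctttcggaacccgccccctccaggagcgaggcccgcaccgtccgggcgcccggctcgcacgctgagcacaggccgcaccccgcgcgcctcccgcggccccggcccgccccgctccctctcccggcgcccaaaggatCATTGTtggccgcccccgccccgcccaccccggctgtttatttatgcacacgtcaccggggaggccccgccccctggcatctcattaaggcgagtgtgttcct
Tns3: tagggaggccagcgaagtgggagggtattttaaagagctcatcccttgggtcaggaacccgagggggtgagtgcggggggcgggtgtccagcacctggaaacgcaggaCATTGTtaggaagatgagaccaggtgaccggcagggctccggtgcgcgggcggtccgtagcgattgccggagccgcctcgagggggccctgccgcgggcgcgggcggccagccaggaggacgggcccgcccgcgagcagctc
Enpp6: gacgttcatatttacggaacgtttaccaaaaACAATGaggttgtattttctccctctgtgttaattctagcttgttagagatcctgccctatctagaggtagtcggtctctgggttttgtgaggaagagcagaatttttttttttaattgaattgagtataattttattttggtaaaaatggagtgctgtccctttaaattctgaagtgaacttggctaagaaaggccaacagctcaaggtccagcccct

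A gene with several starts has a window for each and was counted when any of them held the letters. Across the 19 of 21 genes with a promoter in the table, the letters ACAATG or CATTGT were present in 3 (15.8%), against 12.2% of all 27025 genes. ACAAAG or CTTTGT, the core of TCF/LEF factors such as TCF7L2, was present in 2 of the 19, *Frmd4a* and *Tcf7l2* (10.5%, against 18.6%; for *Tcf7l2* in the window of another start than the one printed), and the E-box CAGCTG in 2, *Cd9* and *Phyhipl* (10.5%, against 14.7%). Each share rests on 2 or 3 promoters, and a match is only a match of letters. Among the COP markers searched for ACAATG or CATTGT, *Enpp6* held a match and *Neu4*, *Bmp4* and *Fyn* gave none.

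Most of the myelin genes tested were higher in COPs than in OPCs and lower than in OLs. Of 30 members tested outside the rule, 22 were higher in COPs than in OPCs and 0 lower (median log2 fold change 2.12, against -0.05 over all genes), and 29 of 30 were lower than in OLs and 0 higher (median -2.56, against 0.05). Of all genes, 18.9% were higher than in OPCs and 31.2% lower than in OLs. *Mbp* was at 3211 ± 1672 CPM in COPs (lowest 1347, median 2708, highest 7080.2), 521 ± 162 in OPCs and 7387 ± 602 in OLs, so COPs held 43.5% of the OL level. The lowest COP library was above the highest OPC library (847 CPM). In endothelial cells *Mbp* was at 522 ± 173 CPM with a UMI in 54.7% of cells, a measure of RNA carried over from other cells.

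The percentage of the OL level set an order among the myelin genes. *Gal3st1*, the sulfotransferase that makes sulfatide, was at 134% and did not pass the test against OLs (log2 fold change 0.17, adjusted p = 0.416). *Myrf*, the master transcription factor of myelin genes, was at 51.2% and *Cnp* at 47.7%. At the other end were *Mal* at 3.31%, *Apod* at 2.55% and *Car2* at 0.814%. These 3 were lower in COPs than in endothelial cells (161 against 466 CPM, 85.3 against 417 and 46.6 against 113), as were 5 of the 29 genes shown in all, so their COP levels cannot be told from RNA carried over. The median over the 29 genes shown was 17.5%. *Mag*, an adhesion molecule of the inner sheath, was at 1358 ± 1315 CPM (lowest 0, median 777, highest 3809), a spread over mice nearly as large as its mean. With COPs that had neither a *Pdgfra* nor a *Mog* UMI, 19 of 31 tested myelin genes were higher than in OPCs, as were 299 of all 1913 genes in that fit. The median log2 fold change of the myelin genes was then 1.32 in place of 2.12, and with cells thinned to 500 UMIs it was 1.24 over 23 genes.

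**Figure D3:**
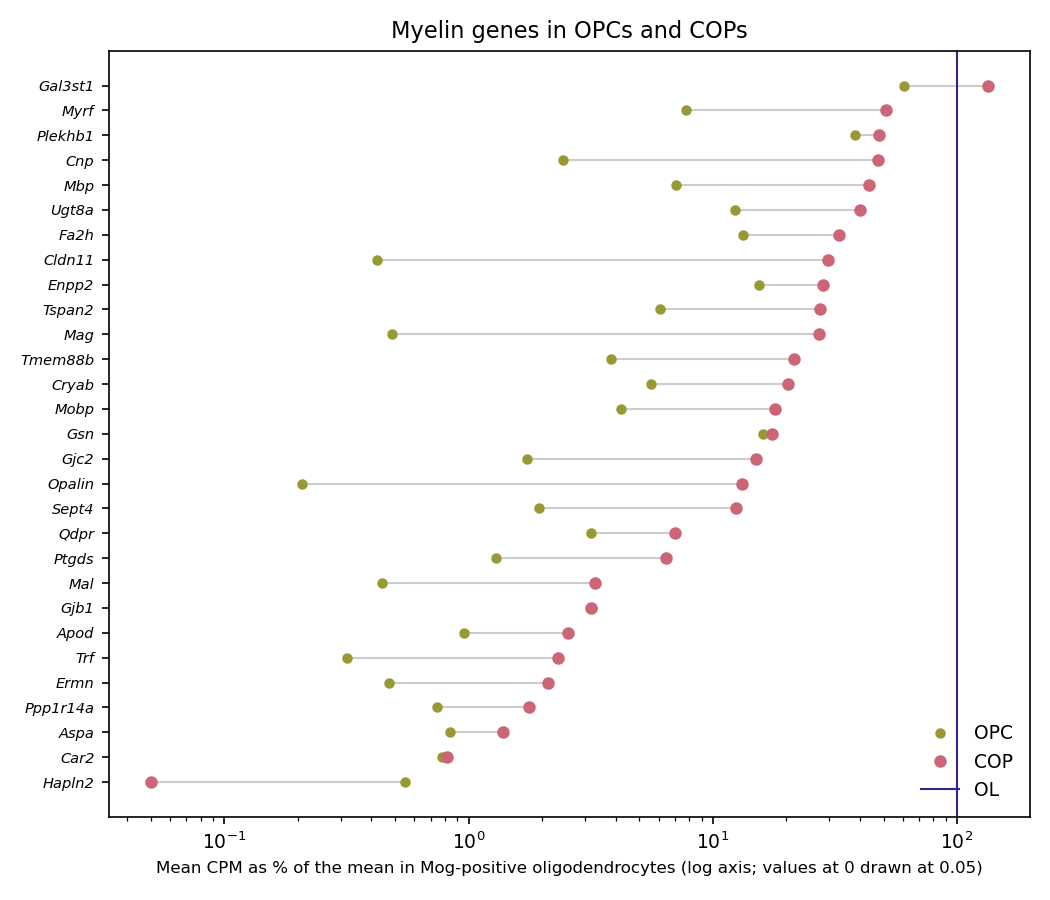
COP and OPC levels of 29 tested myelin genes as a percentage of the OL level on a log axis, with genes ordered by the COP percentage and a value of 0 drawn at 0.05%. COP points lie above the OPC points for 27 genes and below 100% for 28, with a median of 17.5%.

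Most precursor genes were lower than in OPCs, and those tested were higher than in OLs. Of 18 tested, 13 were lower in COPs than in OPCs and 0 higher (median log2 fold change -0.89), whereas all 18 were higher than in OLs (median 4.13), with 22.2% of all genes lower than in OPCs and 36.1% higher than in OLs. With COPs of at least 3 *Gpr17* UMIs the median against OPCs was -1.49. *Ptprz1* was at 1321 ± 364 CPM in COPs, 2839.9 ± 433 in OPCs and 64.2 ± 26.9 in OLs. *Cspg5* was at 636 ± 275, 1774 ± 387 and 28.9 ± 15.6 CPM. *Vcan* (log2 fold change against OPCs -0.10, adjusted p = 0.540), *Gpr37l1* (-0.03, 0.860) and the transcription factor *Sox6* (0.03, 0.909) did not pass the test against OPCs. *Pdgfra*, used for the OPC rule, was at 579.8 ± 239 CPM in COPs (lowest 244, median 538, highest 1033) and 2545 ± 297 in OPCs.

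Genes known from committed and newly formed oligodendrocytes, chosen with earlier results of these data known, were higher than in OPCs for 17 of 18 tested (median log2 fold change 1.83) and higher than in OLs for 15, lower for 1 (median 2.36), with 18.9% and 36.1% of all genes higher. With cells thinned to 500 UMIs only 4 of them could be tested against OLs, with a median of 0.35. Besides *Bcas1* and *Tcf7l2*, *Nfasc* was at 1407 ± 674 CPM in COPs, 91.4 ± 43.3 in OPCs and 693 ± 247 in OLs. *Slc44a1*, a choline transporter, was at 811 ± 209, 122 ± 45.0 and 518 ± 98.6 CPM. *Lims2*, a focal adhesion protein, was at 687 ± 256, 221 ± 73.7 and 48.5 ± 17.1 CPM. *Tnr*, the matrix protein tenascin-R, rose by 0.78 (log2) against OPCs and was 4.45 above OLs.

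Among 21 transcription factors of the lineage that were tested, 8 were higher and 6 lower in COPs than in OPCs, with 18.9% and 22.2% of all genes higher and lower. Against OLs, 11 were higher and 5 lower, with 36.1% and 31.2% of all genes. The higher ones included, after *Tcf7l2*, *St18* (log2 fold change 2.80 against OPCs, -1.30 against OLs), *Nkx2-2*, a factor of oligodendrocyte differentiation (1.01 and 2.15), *Zeb2* (0.95 and -0.34), *Klf9*, a target of thyroid hormone (1.05; against OLs -0.26, adjusted p = 0.180), and *Sox8* (0.65 and 1.28). *Nkx2-2* was at 303 ± 92.4 CPM in COPs (lowest 155, median 289, highest 449), 135 ± 53.1 in OPCs and 59.0 ± 23.2 in OLs. The lower ones included *Sox5* (-0.82 against OPCs), *Nfia* (-0.69), *Nfib* (-0.65) and *Klf6* (-0.64). *Sox10*, the lineage's own Sox factor, was at 0.24 against OPCs (adjusted p = 0.184) and 0.80 against OLs (adjusted p = 1.35e-06).

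Genes of dividing cells had few UMIs in COPs. *Top2a*, a topoisomerase of dividing cells, had 6 UMIs in the 386 COPs and 96 in the 1027 OPCs, and *Mki67* had 1 and 55. Only 5 cell cycle genes had enough UMIs to be tested, of which *Ccnd1* and *Pcna* were lower in COPs than in OPCs and 0 higher, with 22.2% and 18.9% of all genes lower and higher. Against OLs, *Ccnd1*, *Cdk4* and *Tubb5* were higher and *Pcna* and *Stmn1* lower (median log2 fold change 1.31, against 0.05 over all genes), with 36.1% and 31.2% of all genes higher and lower. *Pcna*, a clamp of DNA replication, was at 93.3 ± 60.2 CPM in COPs and 158 ± 72.5 in OPCs (log2 fold change -0.92, adjusted p = 9.80e-04).

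Cytoskeleton and process growth genes were more often called higher than lower in COPs against OPCs. Of 39 tested, 18 were higher and 3 lower than in OPCs (median log2 fold change 0.25), with 18.9% and 22.2% of all genes higher and lower. Against OLs, 18 were higher and 14 lower (median 0.11), near the 36.1% and 31.2% of all genes. *Tuba1a*, an alpha-tubulin, was at 4504 ± 1056 CPM in COPs (lowest 2735, median 4456, highest 6694), 1786 ± 384 in OPCs and 1734 ± 299.6 in OLs. No COP library overlapped those of OPCs or OLs, and the log2 fold changes were 1.22 (SE 0.09) and 1.10 (SE 0.09). *Sirt2* was at 2075 ± 618, 282 ± 69.4 and 722 ± 155 CPM, and *Cd9*, a tetraspanin, at 1919 ± 510.3, 633 ± 182 and 745 ± 165. *Marcks*, which binds actin at the membrane, was at 2102 ± 478 CPM in COPs and 1889.8 ± 287 in OPCs (adjusted p = 0.816) but 128 ± 161 in OLs. *Actb*, actin itself, was 0.25 higher (log2) than in OPCs and 0.35 higher than in OLs, in 15 of 16 libraries each.

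Of 27 adhesion and guidance genes tested, 22 were higher and 2 lower than in OLs (median log2 fold change 1.60, with 36.1% and 31.2% of all genes higher and lower), and 7 were higher and 7 lower than in OPCs (median 0.18, with 18.9% and 22.2% of all genes). *Pcdh17*, a protocadherin, was at 1337 ± 703 CPM in COPs, 370.3 ± 73.2 in OPCs and 317 ± 298 in OLs. *Bcan*, the proteoglycan brevican, was at 1186 ± 227, 957 ± 143 and 47.8 ± 29.9 CPM. *Cntn1*, a contactin of axon and glia contacts, was lower than in OPCs (log2 fold change -0.84) in all 16 libraries and higher than in OLs (2.49).

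Of 17 ion channel and transmitter receptor genes tested, 10 were lower in COPs than in OPCs and 3 higher (median log2 fold change -0.76), with 22.2% and 18.9% of all genes lower and higher. Against OLs, 13 were higher and 3 lower (median 1.62), with 36.1% and 31.2% of all genes. *Gria2*, the subunit that makes AMPA receptors impermeable to calcium, was an exception, at 1595 ± 324 CPM in COPs against 1097 ± 218 in OPCs (0.46, SE 0.12, higher in 15 of 16 libraries) and 95.6 ± 62.0 in OLs. The other AMPA subunits *Gria3* and *Gria4* were lower than in OPCs (-1.10 and -0.76) in all 16 libraries. *Kcnd2*, a potassium channel of A-type currents, was -1.29 and *Grm5*, a metabotropic glutamate receptor, -1.19 against OPCs, and *Kcna1*, a potassium channel subunit, was 1.48.

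G protein-coupled receptors and their signalling genes, the class to which *Gpr17* belongs, were called in both directions against OPCs, with 4 of 15 higher and 3 lower (median log2 fold change -0.05), near the 18.9% and 22.2% of all genes, and 3 were higher and 9 lower than in OLs (median -0.58, with 36.1% and 31.2% of all genes). *Lpar1*, a receptor for lysophosphatidic acid, was at 179.8 ± 163 CPM in COPs, 33.9 ± 33.7 in OPCs and 680.0 ± 112 in OLs. *Gpr37*, a receptor of the maturing oligodendrocyte, was at 48.0 ± 46.2, 16.6 ± 19.3 and 702 ± 84.1 CPM, while its relative *Gpr37l1* was at 558 ± 148, 524 ± 109 and 32.6 ± 14.6 CPM. Of 35 genes of BMP and Wnt signalling only 4 could be tested besides the rule gene *Bmp4*. *Tcf7l2* was higher than in OPCs and *Id2*, a BMP target that inhibits differentiation factors, lower (74.8 ± 53.1 CPM in COPs, 248 ± 115 in OPCs and 17.7 ± 11.3 in OLs, log2 fold change -1.68 against OPCs), and neither *Gsk3b* (-0.19, adjusted p = 0.298) nor *Apc* (-0.11, 0.638) passed the test. Of all genes, 18.9% were higher and 22.2% lower than in OPCs. Against OLs, 3 of the 4 were higher and 1 lower (median 1.20), with 36.1% and 31.2% of all genes.

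Genes of cholesterol and myelin lipid synthesis were mostly between the OPC and OL levels. Of 12 tested, 8 were higher than in OPCs and 1 lower (median log2 fold change 0.70), with 18.9% and 22.2% of all genes higher and lower. Against OLs, 10 were lower and 0 higher (median -0.97), with 31.2% and 36.1% of all genes. The members higher than in OPCs included *Elovl7*, a fatty acid elongase (3.05), *Ugt8a*, which makes galactosylceramide (1.59), *Cers2*, a ceramide synthase (1.57), *Fa2h*, a fatty acid hydroxylase (1.38), and *Sc4mol*, a sterol synthesis enzyme (0.95). *Ugt8a* was at 409 ± 212 CPM in COPs, 126 ± 49.7 in OPCs and 1018 ± 99.5 in OLs. The lower member was *Apoe*, a lipid carrier (-0.95), which was at 1059 ± 197 CPM in endothelial cells.

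Immediate early genes were lower in COPs than in OPCs for all 10 tested (median log2 fold change -0.93) and higher than in OLs for all 10 (median 2.04), with 22.2% of all genes lower and 36.1% higher. The median against OPCs was -1.40 with COPs of at least 3 *Gpr17* UMIs, and that against OLs 1.21 over 26 genes without the filter on low counts. *Fos* was at 2111 ± 667 CPM in COPs (lowest 1091, median 2077, highest 3030.3), 3692 ± 787 in OPCs and 402 ± 215 in OLs, and it was lower than in OPCs in all 16 libraries. *Egr1* was at 539.7 ± 291, 1189.9 ± 296 and 144 ± 84.0 CPM. These genes respond within minutes to activity and to tissue dissociation, *Fos* was at 4287 ± 872 CPM in endothelial cells, and the part of dissociation was not tested.

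Receptors for the hormones under study were barely detected in COPs. *Esr1* had 17 UMIs in all COPs, 39.0 ± 51.7 CPM, with a UMI in 3.89% of cells, against 2.34% of OPCs, 3.63% of OLs and 4.74% of endothelial cells. No cell type known to lack *Esr1* was compared, so this share cannot be told apart from free RNA. *Esr2*, estrogen receptor beta, had 6 UMIs, *Pgr*, the progesterone receptor, 3, and *Gper1*, a G protein-coupled estrogen receptor, 2 in COPs against 180 in endothelial cells. Of 5 nuclear receptor pathway genes that could be tested, *Thra*, thyroid hormone receptor alpha, and *Klf9* were higher in COPs than in OPCs, and *Nr3c1*, the glucocorticoid receptor, *Ncor1*, a corepressor, and *Rora* were lower, with 18.9% and 22.2% of all genes higher and lower. Against OLs, 1 of the 5 was higher and 1 lower, with 36.1% and 31.2% of all genes higher and lower. *Thra* was at 349.7 ± 162 CPM in COPs, 151 ± 57.6 in OPCs and 245 ± 59.0 in OLs (log2 fold change against OPCs 1.02, adjusted p = 8.63e-06), and *Thrb*, thyroid hormone receptor beta, at 63.1 ± 32.9 CPM in COPs.

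The number of COPs was then compared between the groups of mice. COPs made up 0.687, 0.921 and 0.715% of kept cells in the 3 wild-type oil mice and 0.361, 0.769, 0.431, 0.491 and 0.815% in the 5 wild-type tamoxifen mice. In Esr1cKO mice they made up 0.815, 0.696, 0.998 and 0.921% under oil and 0.581, 0.530, 0.997 and 0.494% under tamoxifen. The groups overlapped in every pair, and a single library's exact 95% binomial interval was wide, for example 0.356 to 1.20% around the 0.687% of wild-type oil replicate 1. These intervals cover counting error only.

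Means were 0.774 ± 0.128% (n = 3), 0.574 ± 0.205% (n = 5), 0.858 ± 0.131% (n = 4) and 0.650 ± 0.234% (n = 4) in that order. The tamoxifen mean was below the oil mean in both genotypes, by less than the tests could separate: -0.201 percentage points, two-sided exact permutation p = 0.214 in wild-type mice, and -0.207 percentage points, two-sided exact permutation p = 0.171 in Esr1cKO mice. These tests did not use successive sets of 4 library numbers, which the labels do not tie to a day. Wherever a set held both treatments of a genotype, the tamoxifen share was the lower, most narrowly in Esr1cKO mice (0.997 against 0.998%). This pattern within sets was not tested. Esr1cKO against wild-type differed by 0.0832 percentage points, two-sided exact permutation p = 0.400 under oil, and by 0.0766 percentage points, two-sided exact permutation p = 0.651 under tamoxifen. With these group sizes the smallest p that the exact permutation test allows is 0.0179, 0.0286, 0.0286 and 0.00794 in the same order.

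Counted against OPCs, there were 22.4 to 57.4 COPs per 100 OPCs over the 16 mice (median 36.4), with means of 36.3 ± 0.183 in wild-type oil, 37.7 ± 13.3 in wild-type tamoxifen, 40.2 ± 7.42 in Esr1cKO oil and 35.5 ± 6.97 in Esr1cKO tamoxifen mice. As a share of all COPs, OPCs and OLs, COPs made up 8.33 to 14.2%. None of the 12 exact permutation tests (3 measures, 4 comparisons) passed, with a smallest adjusted p of 0.735.

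**Figure D4:**
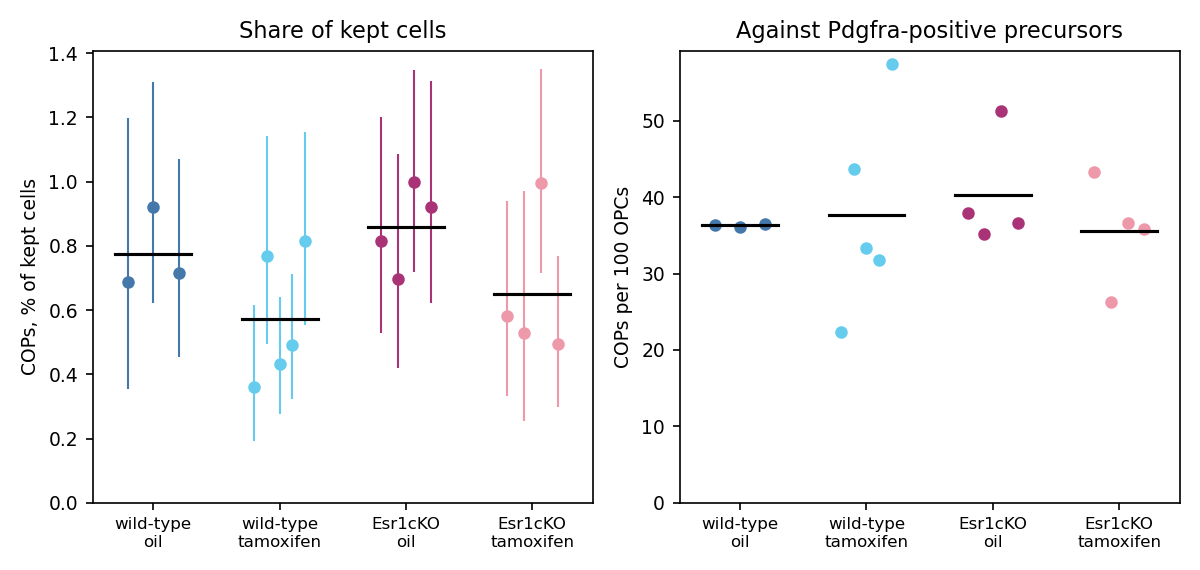
COPs as a percentage of kept cells (left, bars for the exact 95% binomial interval of each library) and per 100 OPCs (right), with 1 point per mouse and a black line at the group mean. The 4 groups overlap in the percentage of kept cells, which runs from 0.361 to 0.998%.

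The marker genes of the rule were followed mouse by mouse, as values only. *Gpr17* in COPs was at 2256, 1782 and 2152 CPM in wild-type oil mice and 2214, 2161, 1579, 2075 and 1667 in wild-type tamoxifen mice. It was at 2420.3, 1511, 1556 and 1628 CPM in Esr1cKO oil mice and 2443, 2785, 1928 and 2245 in Esr1cKO tamoxifen mice. The groups overlapped, and since every COP holds at least 2 *Gpr17* UMIs, shallower cells have higher CPM by construction. *Bmp4* was at 103, 220.5 and 299 CPM in wild-type oil, 738, 173, 308, 131 and 120.3 in wild-type tamoxifen, 249, 243, 125 and 244 in Esr1cKO oil and 499.6, 0, 88.5 and 89.8 in Esr1cKO tamoxifen mice, with overlap of all 4 groups. *Fyn* was at 1999.6, 1562 and 2391 CPM in wild-type oil, 1845, 1729, 1579, 1839 and 1099.8 in wild-type tamoxifen, 1886, 1997, 1606 and 1986 in Esr1cKO oil and 1888, 1147, 938 and 1257 in Esr1cKO tamoxifen mice.

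Expression within COPs was compared between the groups over 1006 genes, in 1 edgeR fit of the 16 libraries. Tamoxifen against oil gave no called gene in wild-type COPs (0%) and none in Esr1cKO COPs (0%), and DESeq2 also called none in either genotype. An unadjusted p under 0.05 was reached by 32 genes (3.18%) and 68 genes (6.76%). Esr1cKO against wild-type gave 1 called gene under oil (0.0994%, with 5.27% at an unadjusted p under 0.05) and 0 under tamoxifen (48 genes, 4.77%, at an unadjusted p under 0.05, and none by DESeq2). Without the 2 libraries that stood apart, an unadjusted p under 0.05 was reached by 112 of 1184 genes for tamoxifen in Esr1cKO COPs and by 91 between the genotypes under tamoxifen, and none was called in either. The difference of the tamoxifen effects between the genotypes gave 1 called gene (0.0994%, with 6.66% at an unadjusted p under 0.05). Both calls were the same gene, *Sox2ot*. The 5 contrasts share libraries, so they are not independent of each other.

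*Sox2ot* is a long non-coding RNA of the plus strand (mm10, chr3:34104270-34682619, GENCODE vM21) whose locus contains *Sox2*, the gene of a stem and precursor cell factor, on the same strand, so reads in the shared stretch cannot be told apart. Its levels in COPs were 103, 331 and 179 CPM in wild-type oil mice, from only 2, 18 and 6 UMIs. In Esr1cKO oil mice its levels were 747, 1026, 565 and 993 CPM, from 21, 38, 45 and 61 UMIs. The levels were 369, 663, 539, 630.5 and 498 CPM in wild-type tamoxifen mice and 555, 409.5, 230.0 and 314 CPM in Esr1cKO tamoxifen mice. All 4 Esr1cKO oil mice were above all 3 wild-type oil mice, a separation seen in 7.55% of the genes tested. The wild-type tamoxifen mice were likewise above wild-type oil (2.98% of genes separated), and the Esr1cKO tamoxifen mice below Esr1cKO oil (3.58%), whereas the 2 tamoxifen groups overlapped (against 1.99% separated).

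Under oil the log2 fold change of *Sox2ot* in Esr1cKO against wild-type COPs was 1.93 (SE 0.38, adjusted p = 0.0360). The difference of the tamoxifen effects, Esr1cKO minus wild-type, was -2.57 on the log2 scale (SE 0.52, adjusted p = 0.0449). In OPCs of the same mice the means were 265 ± 113, 406 ± 111, 431 ± 236 and 391 ± 153 CPM (wild-type oil, wild-type tamoxifen, Esr1cKO oil, Esr1cKO tamoxifen), and in OLs 1006 ± 208, 1052 ± 78.2, 1073 ± 291 and 885 ± 238 CPM. *Sox2* in COPs was at 326 ± 171, 235 ± 75.5, 339 ± 34.8 and 282 ± 38.4 CPM. The call under oil held in 12 of 26 alternatives (adjusted p 0.0165 to 0.910), in which the log2 fold change ran from 1.62 to 2.54, and the adjusted p was 0.910 without wild-type oil replicate 3 and 0.163 without both libraries that stood apart. The call on the difference held in 9 of 25 (0.00645 to 0.329), in which the difference ran from -3.19 to -2.18, with an adjusted p of 0.181 without both libraries and 0.0541 with successive sets of 4 library numbers as a term, where that under oil was 0.0283. In the same COPs all 18 myelin genes tested had a positive log2 fold change under oil and none a positive difference of effects, and their part in the *Sox2ot* values was not tested.

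The genes nearest to a call did not pass here, although without the filter on low counts *Tmeff2* (adjusted p = 1.30e-04) and *Man1a2* (0.0373) passed for tamoxifen in Esr1cKO COPs. In Esr1cKO COPs, *Tmeff2*, a membrane protein with follistatin domains, was at 498, 513, 414 and 1384 CPM under oil and 55.5, 0, 212 and 135 CPM under tamoxifen, without overlap, and its log2 fold change of -2.42 had an adjusted p of 0.294. *Itm2c*, a membrane protein of the BRICHOS family, was at 249, 351, 339 and 326 CPM under oil and 666, 901, 708 and 629 CPM under tamoxifen (1.11, adjusted p = 0.294). *Man1a2*, a mannosidase of the Golgi, had the same adjusted p (-2.35). In wild-type COPs, *Srp14*, of the signal recognition particle, was at 51.3, 129 and 179 CPM under oil and 554, 288, 212, 368 and 447 CPM under tamoxifen (1.48, adjusted p = 0.994). Under tamoxifen the leading genes between genotypes were *Dock4*, *Nav2* and *Ramp1* (-2.07, -1.73 and 1.15, adjusted p = 0.814).

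Myelin genes in COPs differed widely between mice, and no member passed the test between groups. *Mbp* was at 2205, 2756 and 2659.7 CPM in wild-type oil, 3014, 2478, 6529, 2180.4 and 7080.2 in wild-type tamoxifen, 3773, 2240.2, 3839 and 4965 in Esr1cKO oil and 2165, 1392, 2759.8 and 1347 in Esr1cKO tamoxifen mice. Wild-type tamoxifen overlapped wild-type oil, and Esr1cKO tamoxifen overlapped Esr1cKO oil. Of 18 members tested, 18 had a positive log2 fold change for tamoxifen in wild-type COPs (median 0.98, 3 at an unadjusted p under 0.05) and 1 in Esr1cKO COPs (median -0.98, 6 at an unadjusted p under 0.05). None of the 18 was positive for the difference between the 2 effects (median -1.83, 11 at an unadjusted p under 0.05), and 18 were positive for Esr1cKO against wild-type under oil (median 1.10, 7 at an unadjusted p under 0.05). Under tamoxifen 1 of 18 was positive for Esr1cKO against wild-type (median -0.69, 3 at an unadjusted p under 0.05). Over all 1006 genes, 51.8, 50.5, 49.7, 52.4 and 50.4% were positive in these 5 contrasts in the order given, 3.18, 6.76, 6.66, 5.27 and 4.77% reached an unadjusted p under 0.05, and the medians lay between -0.0045 and 0.019. Other lists were also uneven in sign. Of 42 respiratory chain genes 38 were positive for tamoxifen in Esr1cKO COPs (median 0.35), of 22 adhesion and guidance genes 2 for the difference (median -0.68), of 9 immediate early genes 0 under oil (median -0.41), and of 23 committed-stage genes 5 for tamoxifen in Esr1cKO COPs (median -0.52). No adjusted p was under 0.05 in edgeR, and the contrasts share libraries. Without the 2 libraries that stood apart the median of the difference was -2.79 (-0.066 over all 1184 genes). There 2 members, *Mag* and *Mobp*, were called, the only calls on the difference in that fit. With COPs of at least 3 *Gpr17* UMIs 10 of 17 were positive for tamoxifen in wild-type COPs, with a median of 0.49 (0.022 over all 783 genes).

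The share of COPs with a *Mog* UMI was 14.3% ± 2.01 in wild-type oil (n = 3), 11.6% ± 4.40 in wild-type tamoxifen (n = 5), 13.1% ± 10.7 in Esr1cKO oil (n = 4) and 6.17% ± 7.13 in Esr1cKO tamoxifen mice (n = 4). In the OLs of the same mice *Mbp* was at 7323 ± 704, 7639.6 ± 746, 7359 ± 253 and 7149.5 ± 701 CPM, and in endothelial cells at 483 ± 223, 638 ± 169, 481 ± 105 and 446 ± 181 CPM, in the same order of groups. The myelin list summed to 24809.6 ± 5019.7, 37568 ± 16633, 43931 ± 19235 and 21722 ± 11335 CPM in COPs. Summed precursor genes were 8414 ± 1473, 8214 ± 1666, 8599 ± 2066 and 9698 ± 1729 CPM. The median UMIs of COPs in a library were lowest in Esr1cKO tamoxifen mice (1160.5 ± 119) against 1426 ± 232 in Esr1cKO oil mice. Whether the mix of early and late COPs or their depth set the myelin values was not tested.

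**Figure D5:**
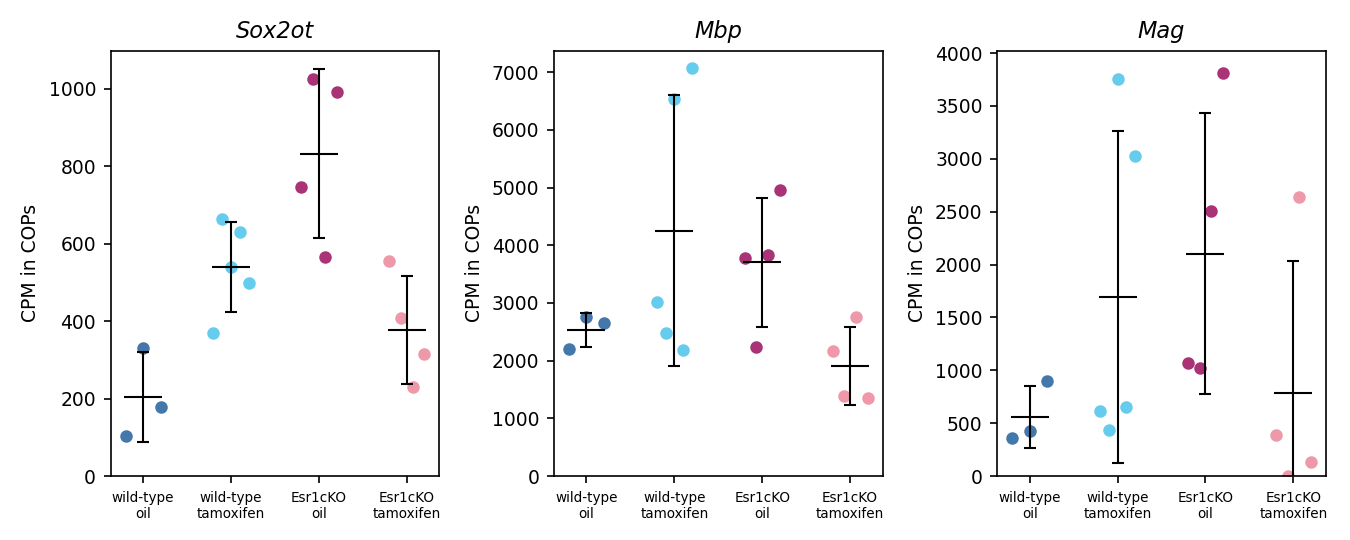
Levels in COPs of *Sox2ot*, *Mbp* and *Mag* by group, in CPM from 0, with 1 point per mouse and black marks for the group mean and SD. *Sox2ot* lies at 565 CPM or more in the 4 Esr1cKO oil mice and at 331 CPM or less in the 3 wild-type oil mice, and the *Mbp* groups overlap within each genotype.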

How the data were processed

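The authors prepared single cells by Drop-seq, aligned reads with STAR 2.6 to mm10 (per the labels' processing notes) and deposited 1 matrix of UMI counts per library, raw and not normalized; doublet removal before deposit is not given in the sources used here. From these deposited counts, cells with 201 to 3999 genes and under 15% mitochondrial UMIs were kept. Scrublet (scanpy 1.11.5) called 733 doublets (1.32%), which were retained except in 1 alternative. Cell types followed fixed rules on counts. The members and gene lists were chosen with earlier results of these data known.

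UMIs were summed per library and type, genes of the rules were removed from the comparisons of types, and edgeR 4.0.16 (R 4.3.3; TMM, filterByExpr, glmQLFit, glmQLFTest) was fitted across all genes with Benjamini-Hochberg adjustment, threshold 0.05. A type entered with at least 10 cells in a library. The study compared single cells; here the mouse was the unit. DESeq2 1.42.0 served as an alternative. Shares were compared with two-sided exact permutation tests. Fits were tested on simulated data. Libraries held 2634253 to 8038158 UMIs.

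Named were all rule genes; members of the gene lists with their values; per comparison of types the 10 genes with the largest log2 fold change each way among those called, with at least 50 CPM and the same direction in all 16 libraries; for treatment contrasts the called genes, or otherwise the 3 with the smallest p; and the receptors of steroid and thyroid hormones. COPs hold too few *Esr1* UMIs to check its deletion in them. Per the study's methods, mice were collected over 4 days with 4 mice a day and all groups in parallel; the labels used here do not tie a library to a day, and day was not analysed here. A few genes that these rules select are not reported here.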

Additional observations from a re-analysis of the deposited data

Results flagged for a closer look

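A sample far from the rest of its group was found in 4 of 48 groups of values looked at, and chance alone marks about 1 in 20. COPs per 100 OPCs were 51.2 in Esr1cKO oil replicate 3, against 35.2 to 37.9 in the other 3 mice of the group. *Gpr17* in COPs was at 2420.3 CPM in Esr1cKO oil replicate 1, against 1511 to 1628 CPM in the other 3. *Bmp4* in COPs was at 125 CPM in Esr1cKO oil replicate 3, against 243 to 249 CPM in the other 3. *Enpp6* in COPs was at 1538 CPM in wild-type tamoxifen replicate 1, against 378 to 683 CPM in the other 4.

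The effect of tamoxifen on *Sox2ot* in COPs differed between the genotypes, by a log2 value of -2.57 (edgeR interaction term, adjusted p = 0.0449), and this call held in 9 of 25 alternatives, in which the difference ran from -3.19 to -2.18. The adjusted p was 0.0541 with successive sets of 4 library numbers as a term and 0.181 without the 2 libraries that stood apart.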

How the results depend on the processing

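No paired analysis was possible because the labels number the libraries 1 to 16 and give no replicate numbers shared between groups. In place of a pairing, successive sets of 4 library numbers, which the labels do not tie to a day, were fitted as a term. This was done for expression between the groups of mice and not for the shares of COPs. In the comparisons of cell types the named genes gave 5169 values on the same side of the threshold, 48 that no longer passed, 32 that newly passed and 4 that reversed. Among the 5169, genes that did not pass could change sign, as *Gpr37l1* against OPCs did (-0.084 to 0.069 with 1 library left out). Reversed values were those of *Slc44a1* against OLs without the filter on low counts (log2 fold change -0.034) and *Ermn* against OPCs in COPs with neither a *Pdgfra* nor a *Mog* UMI (-2.12). *Nfib* against OLs also reversed, in COPs with at least 3 *Gpr17* UMIs (-0.13) and in COPs with neither UMI (-0.33). The cause was not tested. Without the filter (21440 genes) 1026 genes were lower than in OPCs, and 1265 higher and 2478 lower than in OLs. With cells thinned to 500 UMIs (419 genes) 58 were higher and 83 lower than in OPCs, and 153 higher and 162 lower than in OLs, and 230 of the 236 calls against OPCs that could be tested kept their direction. In COPs with no exclusion gene (1245 genes) 250 were lower than in OPCs. Leaving out 1 library at a time gave 294 to 357 higher and 316 to 395 lower against OPCs, and 545 to 655 and 500 to 609 against OLs.

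Between the groups of mice, the named genes gave 249 values that stayed, 30 that no longer passed and 2 that newly passed. The difference of the tamoxifen effects had 13 calls without the filter, 10 with at least 20 COPs in a library (which leaves 1 Esr1cKO tamoxifen library, assumed to vary like the others), 2 with at least 3 *Gpr17* UMIs, 2 without the 2 libraries that stood apart, 0 with sets of 4 libraries as a term and 0 to 2 when 1 library was left out. Esr1cKO against wild-type under oil had 8 calls without the filter, 0 with at least 20 COPs, with at least 3 *Gpr17* UMIs, without the 2 libraries or with only the 2 groups, and 0 to 1 when 1 library was left out. A minimum of 5 COPs in a library left the fit as it was, since each library had at least 10, and is not counted. Tamoxifen in Esr1cKO COPs had 8 calls without the filter, and the genotypes under tamoxifen 4 with at least 20 COPs. Without the filter, the median log2 fold change of all genes was -0.61 for the difference and -0.25 for tamoxifen in Esr1cKO COPs. The fit with only the 2 groups gives no difference of effects. The shares of COPs reversed for Esr1cKO tamoxifen against oil at 500 UMIs per cell (0.0362 percentage points), for Esr1cKO against wild-type under oil at 500 UMIs (-0.132) and with at least 3 *Gpr17* UMIs (-0.0234), and under tamoxifen with at least 3 *Gpr17* UMIs (-0.0355) and without the 2 libraries (-0.0390). With 1 library left out, the 4 differences ran from -0.261 to -0.128, -0.323 to -0.155, 0.0364 to 0.156 and -0.0390 to 0.137 percentage points (wild-type tamoxifen against oil, Esr1cKO tamoxifen against oil, genotypes under oil, genotypes under tamoxifen), and only the last changed sign, without Esr1cKO tamoxifen replicate 3. Depth limits every group comparison, since a library gave 10 to 42 COPs.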

Other observations

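Of 70 ribosomal protein genes tested, 17 were higher and 1 lower than in OPCs (median log2 fold change 0.24, against -0.05 over all genes), with 18.9% and 22.2% of all genes higher and lower. Against OLs, 9 were higher and 6 lower (median -0.03), with 36.1% and 31.2% of all genes. *Rps3* was higher than in OPCs in all 16 libraries (447 ± 137 CPM in COPs, 310.5 ± 75.9 in OPCs, log2 fold change 0.45, adjusted p = 0.00173). The lower member was *Rpl13* (1114 ± 296 and 1956 ± 497 CPM, -0.90, in all 16 libraries), and counts of this family are uncertain, since near-identical pseudogenes can share its reads.

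Of 58 respiratory chain genes tested, 1 was higher and 3 lower than in OPCs (median -0.03), with 18.9% and 22.2% of all genes higher and lower. Against OLs, 9 were higher and 15 lower (median -0.04), with 36.1% and 31.2% of all genes. *Atp5f1*, a subunit of the ATP synthase, was higher than in both (0.36 and 0.31), while *Cox4i1*, a subunit of cytochrome oxidase, was 0.12 against OPCs (adjusted p = 0.382) and -0.62 against OLs.

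Among markers of other cell types, 2 of 3 tested neuron genes were lower in COPs than in OPCs and 3 higher than in OLs, with 22.2% of all genes lower than in OPCs and 36.1% higher than in OLs. *Bsg*, the only endothelial marker tested, was lower than in OPCs (-0.88) and at -0.00 against OLs (adjusted p = 0.998), and *Cst3*, the only microglia marker tested, was lower than in OPCs (-0.77) and at 0.05 against OLs (adjusted p = 0.757).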
